A study of Mus musculus with 7 samples.

Results

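Park7, Vamp3, Camta1, Dnajc11, Thap3, Phf13, Klhl21 and Zbtb48 are 8 genes at the proximal side of an engineered deletion in mouse band 4E2. They were listed by name for their place along this side of the deletion, and make up 8 of the 15531 genes the authors listed as tested and 8 of the 42 listed genes that lie between Rere and Ski. RNA-seq was done on 7 primary mouse embryonic fibroblast (MEF) lines, derived from embryos at day 13.5 and taken at passage 4, 10 h after confluency. In 4 lines, Df/+Bl6, the chromosome 4 from 129S5/SvEvBrd carried the deletion (Df) beside an intact C57BL/6J homologue. The 3 lines of +/+ genotype served as controls and came from F1 crosses in which the 129S5/SvEvBrd and the C57BL/6J chromosome were both intact. Df came through male chimeras made from engineered embryonic stem cells and mated with C57BL/6J females, so each Df chromosome traces back to a single engineered cell line. A Df/+Bl6 cell thus has 1 copy of each of the 8 genes and a control cell has 2, and equal output per copy would leave 50% of the control level.

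The genes have unrelated roles. Park7 encodes DJ-1, a redox-sensitive protein whose loss causes a recessive form of Parkinson disease, Vamp3 encodes a vesicle SNARE of recycling endosomes, and Dnajc11 encodes a J-domain protein of mitochondria that associates with the complex shaping the cristae. Camta1 is a calmodulin-binding transcription activator, Thap3 a THAP zinc finger protein, Phf13 a PHD finger protein that reads methylated histone tails, Klhl21 an adaptor of the cullin ubiquitin ligase that acts on the chromosomal passenger complex in mitosis, and Zbtb48 a zinc finger protein that binds telomere repeats.

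On GRCm38 the genes span chr4:150897133-152027675, which is 1131 kb, and Camta1 alone takes up 802246 bp of it. The others are short, from 6349 bp for Thap3 to 48240 bp for Dnajc11. Vamp3 and Camta1, on the same strand, are 1569 bp apart, and 71951 bp separate Camta1 from Dnajc11. Between Dnajc11 and Thap3, which point towards each other, lie 678 bp, and between Thap3 and Phf13, on the same strand, lie 644 bp. Phf13 and Klhl21 point away from each other across 12711 bp, and Klhl21 and Zbtb48 towards each other, 2095 bp apart. Park7 stands 137 kb from Vamp3, with Per3 as the single other tested gene among the 9 from Park7 to Zbtb48. In RefSeq, a further gene model, Gm38529, overlaps Vamp3, and 11 gene models overlap Camta1, while none overlaps any of the other 6 genes.

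The bases just before the gene start are shown for the members found among the RefSeq promoters of GRCm38.p6, which were 5 of the 8. Each line gives the 250 bases before the gene's start, 5′ to 3′ on the gene's own strand. Capitals mark GGGCGG and CCAAT on either strand, so that CCGCCC and ATTGG are in capitals too. Park7 lies at chr4:150909922-150910171, Camta1 at chr4:151861769-151862018, Thap3 at chr4:151988987-151989236, Phf13 at chr4:151996180-151996429 (all on the minus strand) and Klhl21 at chr4:152008641-152008890 on the plus strand.
Park7: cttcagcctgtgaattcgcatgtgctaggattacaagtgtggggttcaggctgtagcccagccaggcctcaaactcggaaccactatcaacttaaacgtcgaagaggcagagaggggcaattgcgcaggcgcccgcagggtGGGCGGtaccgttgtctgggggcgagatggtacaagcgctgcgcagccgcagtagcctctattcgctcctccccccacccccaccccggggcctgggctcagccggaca
Camta1: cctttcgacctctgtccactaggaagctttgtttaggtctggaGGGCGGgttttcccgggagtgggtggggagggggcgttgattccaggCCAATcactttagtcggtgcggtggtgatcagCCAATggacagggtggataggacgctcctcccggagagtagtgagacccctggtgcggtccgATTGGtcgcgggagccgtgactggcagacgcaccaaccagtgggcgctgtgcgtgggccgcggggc
Thap3: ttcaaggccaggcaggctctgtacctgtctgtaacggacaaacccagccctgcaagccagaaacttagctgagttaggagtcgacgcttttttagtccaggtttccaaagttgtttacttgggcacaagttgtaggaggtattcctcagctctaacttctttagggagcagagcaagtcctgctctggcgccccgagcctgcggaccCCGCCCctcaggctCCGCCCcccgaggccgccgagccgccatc
Phf13: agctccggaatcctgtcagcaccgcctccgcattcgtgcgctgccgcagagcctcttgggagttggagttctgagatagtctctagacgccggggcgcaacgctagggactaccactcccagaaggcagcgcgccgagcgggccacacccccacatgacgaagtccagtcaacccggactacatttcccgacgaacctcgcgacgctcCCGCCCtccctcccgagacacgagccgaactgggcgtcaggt
Klhl21: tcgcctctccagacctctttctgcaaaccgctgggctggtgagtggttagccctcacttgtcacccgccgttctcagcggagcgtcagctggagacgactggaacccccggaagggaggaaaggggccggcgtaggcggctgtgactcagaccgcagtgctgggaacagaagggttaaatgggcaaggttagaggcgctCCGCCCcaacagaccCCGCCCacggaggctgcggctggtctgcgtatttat

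The motif GGGCGG, also known as the GC box, occurred in each of the 5 windows, 1 time in Park7, Camta1 and Phf13 and 2 times in Thap3 and Klhl21. Of all 32851 RefSeq promoter windows of this length, 32.7% hold it. CCAAT occurred 3 times before Camta1 and in none of the other 4 windows, against 33.8% of all windows. TATAAA (12.4% of all windows) and CACGTG (6.02%) were in none of the 5. The windows were rich in G and C, from 58.0% in Thap3 to 64.8% in Phf13, where the median of all windows was 52.4%. They held 12 to 26 CpG dinucleotides, against a median of 6. These are matches of letters in a short window, and they were not set against windows of like G and C content. Camta1, which was not called in any comparison, has them as well.

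The first comparison asked how the summed output of both alleles differed between Df/+Bl6 and +/+ MEFs. Of the 8 genes, 6 were called by the authors at an FDR of 0.05, and each of the 6 was lower in Df/+Bl6. Over all listed genes 8.67% were called, and 3.54% were called lower. Among the other 34 tested genes of the interval 21 were called (61.8%), against 75% of the 8 genes, and this difference was not tested. Values are the authors' mean normalized counts of each genotype, for which no value per line was used here, so no SD can be given and the depth of each line is unknown. In bulk RNA, fewer cells of a type and less RNA per cell cannot be told apart.

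Park7 had the largest fall of the 6. Its mean normalized count was 10153 in +/+ and 4043 in Df/+Bl6, a log2 ratio of -1.33, and 39.8% of the control level was left. Vamp3 went from 9841 to 4971, leaving 50.5%. Dnajc11 went from 10515 to 5376, leaving 51.1%. These last 2 genes encode the vesicle SNARE and the mitochondrial J-domain protein.

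The other 3 called genes were Klhl21, Thap3 and Phf13. Klhl21 went from 4668 to 2512 (53.8% left, log2 ratio -0.89). Thap3, the lowest of the 6 in mean count, went from 738.4 to 412.2 (55.8% left, log2 ratio -0.84). Phf13 kept the most, with 4145 in +/+ and 2628 in Df/+Bl6, which is 63.4% and a log2 ratio of -0.66. Over the 6 genes the median log2 ratio was -0.93 and the median share left 52.5%. For the 21 other called genes of the interval the median share left was 39.1%, with a range from 14.4% to 61.1%, so that Phf13 stood above each of them. Outside the interval the called genes had a median log2 ratio of 0.62, since 796 of 1319 were higher in Df/+Bl6. Of all 1346 called genes 1320 had a known position, and those without one were counted as outside. Relative to that median, the log2 ratios of the 6 genes ran from -1.94 in Park7 to -1.27 in Phf13.

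**Figure D1:**
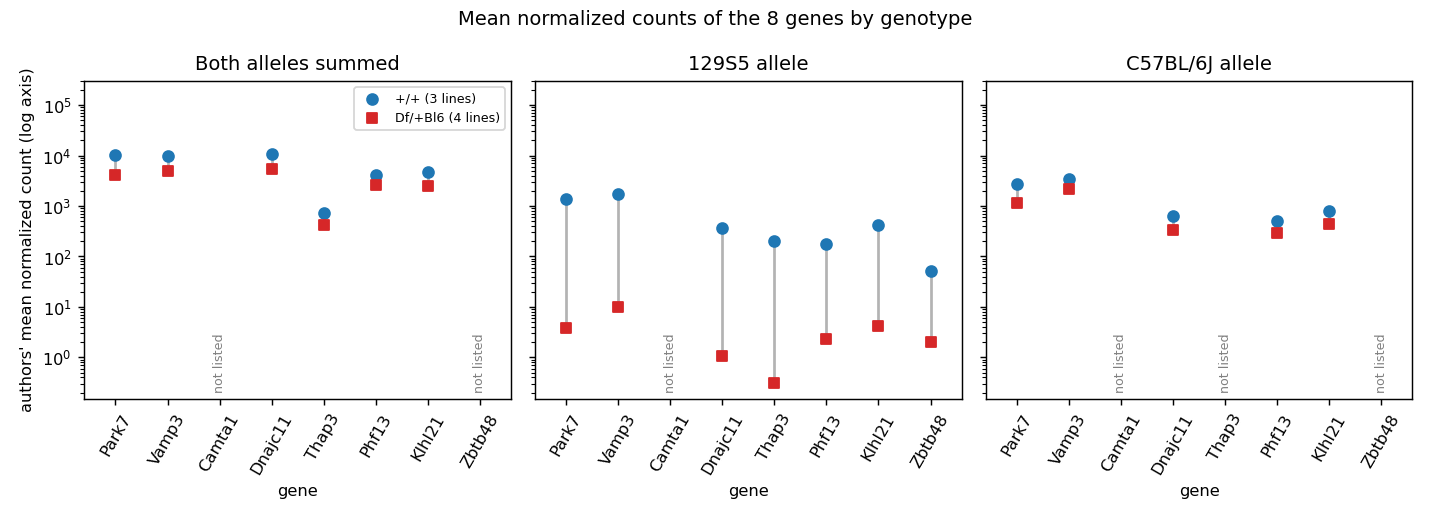
Authors' mean normalized counts (log axis) of the 8 genes in +/+ (circles, 3 lines) and Df/+Bl6 (squares, 4 lines), in the 3 tables, each normalized separately. Genes absent from a table are written as not listed. The squares lie below the circles throughout, by the widest distance for the 129S5 allele, where they sit between 0.314 and 9.92.

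Camta1 and Zbtb48 were tested but not called on the summed counts. That says only that they did not pass the threshold, and their levels on these counts are not given here. A gene that is missing from the table need not have kept its control level.

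Per kilobase of the longest annotated transcript, the summed control level was highest for Park7, with 10835 normalized counts per kb. Vamp3 followed with 4642 and Dnajc11 with 3337. Phf13 (1293) and Klhl21 (1171) were close to each other, and Thap3 was lowest with 656.9. In Df/+Bl6 the same order held, from 4315 per kb for Park7 to 366.7 for Thap3. Whether neighbours in this order differ beyond the spread between lines was not tested. Per kilobase of coding sequence Vamp3, most of whose transcript is non-coding, came before Park7, at 31541 against 17812, and the other 4 genes kept their places.

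Next, reads assigned to the 129S5 transcriptome were compared, which for these genes checks the labelled genotype, because Df is the 129S5 chromosome. Here 7 of the 8 genes were called, all 7 lower in Df/+Bl6, and only Camta1 was not. Of all listed genes 1.65% were called in this table and 0.792% were called lower. The genes tested on 129S5 reads alone are not known here, so both percentages are of the genes listed for the summed counts.

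Little 129S5 signal was left. The mean of Park7 was 1360 in +/+ and 3.78 in Df/+Bl6, which is 0.278%. Vamp3 had 1702 and 9.92, the highest Df/+Bl6 mean of the 7 genes. Thap3 had 203.7 in controls and 0.314 in Df/+Bl6, or 0.154%. A mean below 1 over 4 lines stands for less than a single normalized read per line, and the log2 ratios of such genes, -9.34 for Thap3, depend strongly on these few reads. With 1 added to both means Thap3 was at -7.28, and Park7 (-8.15), Dnajc11 (-7.47) and Vamp3 (-7.29) were lower.

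Dnajc11 (364.7 to 1.07, 0.293% left) was close to Park7. Larger shares remained for Klhl21 (413.8 to 4.10, 0.992% left) and Phf13 (177.9 to 2.27, 1.28% left). Zbtb48 had the lowest control mean of the 7 genes, 51.4, and 2.03 in Df/+Bl6. Its remainder was 3.96%, and this was the single table in which this telomere-binding gene appeared. The median log2 ratio was -7.42 for the 7 genes, and -7.69 for the 15 other interval genes called for this allele, of which Rnf207 was listed at 0 in Df/+Bl6. With 10 added to both means, the median of the 7 genes was -4.91 and Zbtb48 was at -2.35.

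The third comparison took reads assigned to the C57BL/6J transcriptome, which is the strain of the homologue that is intact in both genotypes. Of the 8 genes 5 were called, each lower in Df/+Bl6, where 2.09% of the listed genes were called and 0.934% were called lower. Park7 again showed the largest fall, from 2675 in +/+ to 1173 in Df/+Bl6 (43.8% left, log2 ratio -1.19). Vamp3 fell least, from 3360 to 2198 (65.4% left, log2 ratio -0.61).

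The other 3 genes lay between them. Dnajc11 went from 624.5 to 341.1 (54.6% left), Klhl21 from 780.2 to 443.7 (56.9% left) and Phf13 from 499.5 to 293.3 (58.7% left). Over the 5 genes the median share left was 56.9%, and over the 7 other interval genes called for this allele it was 52.8%, with a range from 30.9% to 64.4%. Relative to the called genes outside the interval, whose median log2 ratio for this allele was 0.71, the median of the 5 genes was -1.52 in place of -0.81. Camta1, Thap3 and Zbtb48 were not called. The 3 comparisons share the same control lines and were normalized separately, so their values are given side by side only.

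**Figure D2:**
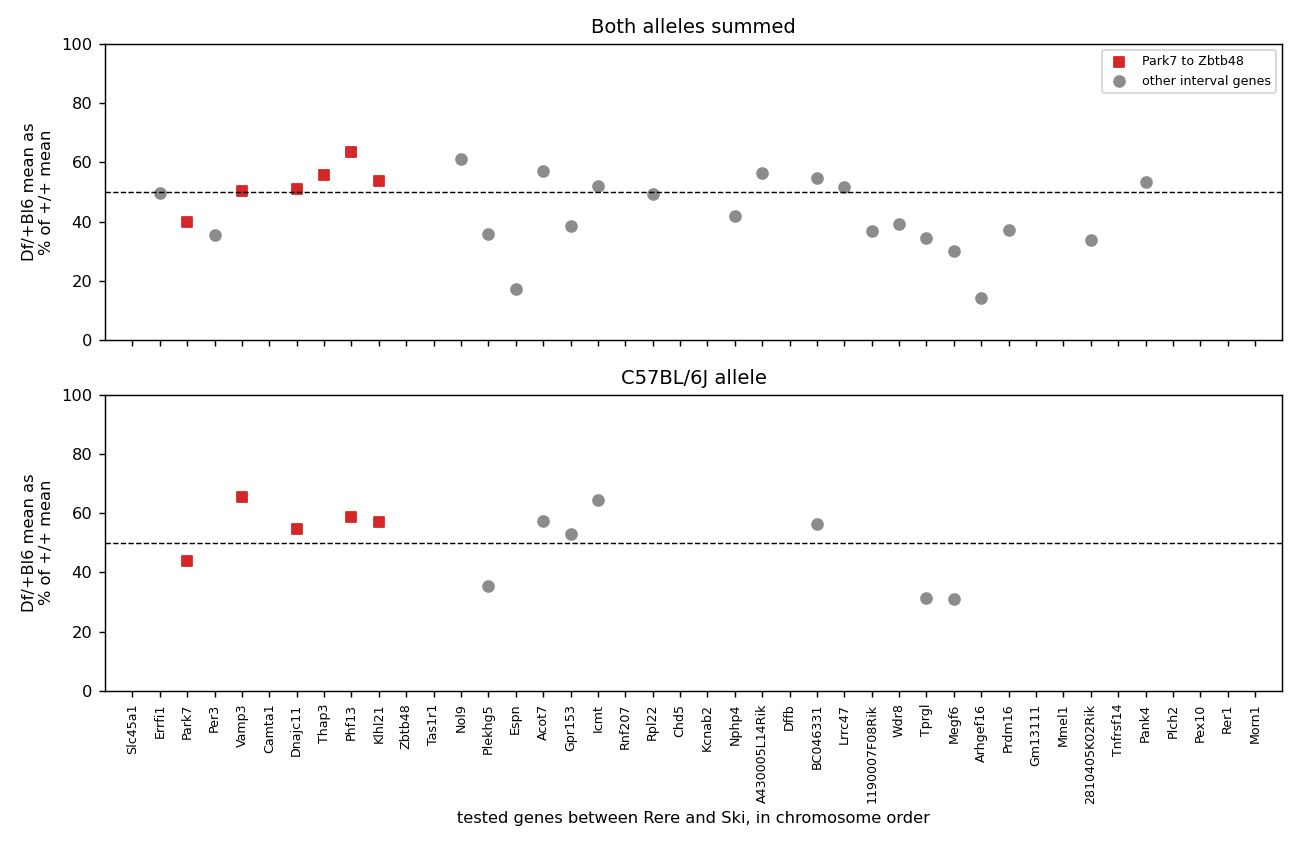
Df/+Bl6 mean as a percentage of the +/+ mean for tested genes between Rere and Ski in chromosome order, for both alleles summed (top) and for the C57BL/6J allele (bottom). Squares are those of the 8 genes that were called, circles the other called interval genes, Per3 among them, and the dashed line is 50%. That is the share left at equal output per copy for the summed counts. It is no such mark for the C57BL/6J allele, whose copy is intact in both genotypes. The squares run from 39.8% to 63.4% at the top and from 43.8% to 65.4% at the bottom, and genes without a symbol drawn were not called.

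By the study's methods, reads needed a single best location and the allelic counts took those that map to a strain's transcriptome, but whether a read that fits both strains alike was counted is not spelled out there. The part of any such reads in the C57BL/6J values was not tested. In +/+, the 2 allelic means of a gene added up to 51.4% of its summed-count mean for Vamp3, 39.7% for Park7, 25.6% for Klhl21, 16.3% for Phf13 and 9.41% for Dnajc11, on tables that were normalized separately. In Df/+Bl6, where nearly all reads of these genes come from the C57BL/6J copy, the same sums were 44.4% for Vamp3, 29.1% for Park7, 17.8% for Klhl21, 11.2% for Phf13 and 6.36% for Dnajc11, so the allelic means were well below the summed-count means in both genotypes. In the same controls the 129S5 mean was 35.6% of the C57BL/6J mean for Phf13 and 50.7% to 58.4% for the other 4 genes. Mapping favoured C57BL/6J by the study's own account, so these shares do not give the relative output of the alleles. For each of the 5 genes the sum of the allelic means was a smaller part of the summed-count mean in Df/+Bl6 than in +/+. The allelic means together thus fell further than the summed counts. For Phf13 the share left on summed counts, 63.4%, was even above that of either allele. The tables therefore do not give a single size for the fall of the intact C57BL/6J copy, and its size was not tested.

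The tested genes next to the 8 differed. Before Park7 lies Errfi1, a feedback inhibitor of the epidermal growth factor receptor, which was called on summed counts (17739 to 8843, 49.8% left) and for 129S5 (150.3 to 1.52) but not for C57BL/6J. After Zbtb48 lies Tas1r1, a taste receptor gene, which was called in none of the 3 tables. Between Park7 and Vamp3 lies the clock gene Per3, which went from 1300 to 460.8 on summed counts (35.4% left) and from 69.5 to 0.690 for 129S5.

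Over the log2 ratios of both alleles, the genes most like the members were looked for by Euclidean distance to the median of the 5 genes called for both alleles (-7.42 and -0.81). Among 189 genes in both allelic tables, the 3 nearest were Icmt (distance 0.32), Gpr153 (0.65) and Acot7 (0.72), which are other genes of the deletion. Outside the interval the nearest were much farther, Angptl7 at 4.67, Comp at 4.85 and Sema3b at 5.26. Their ratios were close for both alleles, for Angptl7 -3.38 for 129S5 and -3.16 for C57BL/6J, whereas the 5 members combined ratios from -8.49 to -6.29 for 129S5 with ratios from -1.19 to -0.61 for C57BL/6J. Because the 129S5 copy of the members is deleted, other genes of the deletion were bound to lie nearest. The gap to genes outside the interval thus restates the genotype. Likeness over a pair of ratios says nothing of shared function.

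**Figure D3:**
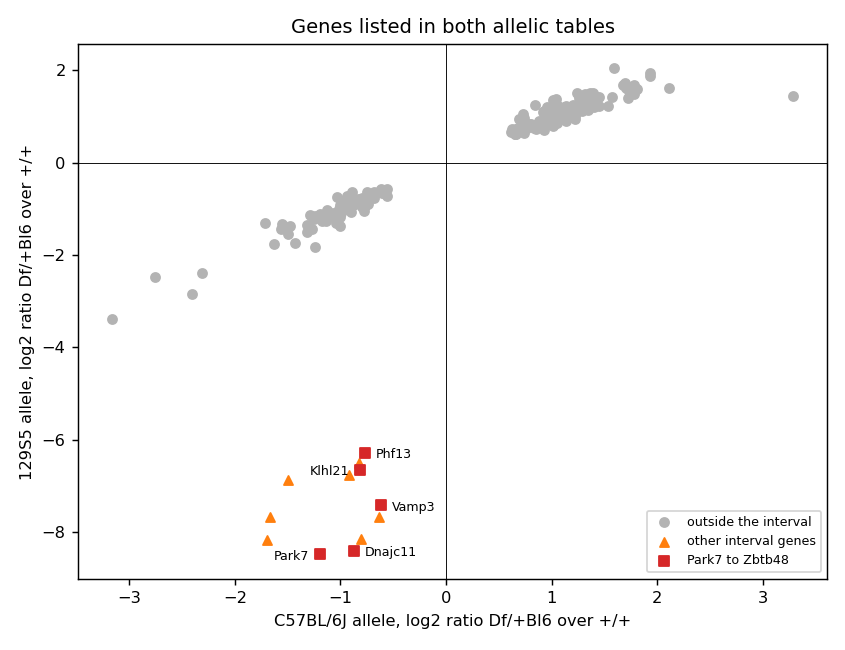
Log2 ratio of Df/+Bl6 over +/+ for the 129S5 allele (vertical) against the C57BL/6J allele (horizontal), for genes in both allelic tables, except the coat colour gene a (nonagouti) outside the interval, at 6.94 and 8.03, which lies beyond the axes. Both ratios use the same control lines. The 5 members (squares) and the 7 other interval genes (triangles) lie below -6 for 129S5, away from the genes outside the interval (circles).

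The other genes of the pathways around each member were then examined on summed counts. Of 128 tested genes in 8 lists, 14 were called (10.9%), 10 of them higher and 4 lower, beside 8.67% of all listed genes (5.13% higher and 3.54% lower). Around Park7, 2 of 22 redox and Parkinson genes were called, both lower. They were Pink1, a mitochondrial kinase (4525 to 2507, log2 ratio -0.85), and Uchl1, a ubiquitin hydrolase (5380 to 3340, -0.69). Nfe2l2, Nqo1, Hmox1 and the other 17 genes of that list were not called. Around Vamp3, 2 of 25 SNARE genes were called, both lower, namely Stxbp2 (4244 to 2565, -0.73) and Napa (32771 to 23470, -0.48).

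No called gene was found among 18 tested calmodulin pathway genes around Camta1 or 11 genes of the cristae and sorting machinery around Dnajc11. The same held for 16 genes around Phf13, mostly PHD finger readers. Around Thap3, 2 of 9 genes were called, both higher, Thap2 (853.1 to 1675, log2 ratio 0.97) and Rrm1, a subunit of ribonucleotide reductase (17112 to 31105, 0.86). Around Klhl21, 4 of 10 were called, all 4 higher, and these are the core of the chromosomal passenger complex. Birc5 rose from 2511 to 5811 (1.21), Aurkb from 1182 to 2392 (1.02), Cdca8 from 2658 to 5058 (0.93) and Incenp from 6895 to 11998 (0.80), while Cul3, the cullin itself, and Klhl9, another adaptor, were not called. Around Zbtb48, 4 of 17 genes, mostly telomere genes, were called, all 4 higher. They were Dkc1 (3968 to 8325, 1.07), Terf1 (902.2 to 1791, 0.99), Atrx (13166 to 21452, 0.70) and Rtel1 (2555 to 3765, 0.56).

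Markers of cell division were examined on the same counts. All 14 cell cycle markers were called higher in Df/+Bl6, beside 5.13% of all listed genes, with log2 ratios from 0.67 for Pcna to 1.72 for Mki67. Their means summed to 94173 in +/+ and 208659 in Df/+Bl6, and Mki67, the most abundant, went from 14644 to 48354. The part of cell division in the values of the 8 genes and of these lists was not tested.

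Of 12 fibroblast markers, all of them among the tested genes, only Fn1 was called (lower, log2 ratio -0.69). That is 8.33% of the list, near the 8.67% called of all listed genes. Among genes of Schwann and neural crest cells, S100b (-2.32), Sox10 (-1.53) and Erbb3 (-1.09) were called lower. None of 4 epithelial, 5 endothelial, 5 macrophage and 5 skeletal muscle markers tested was called. At the share called of all listed genes, lists this short would hold few called genes or none. Whether a change in cell makeup bears on the 8 genes was not tested.

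**Figure D4:**
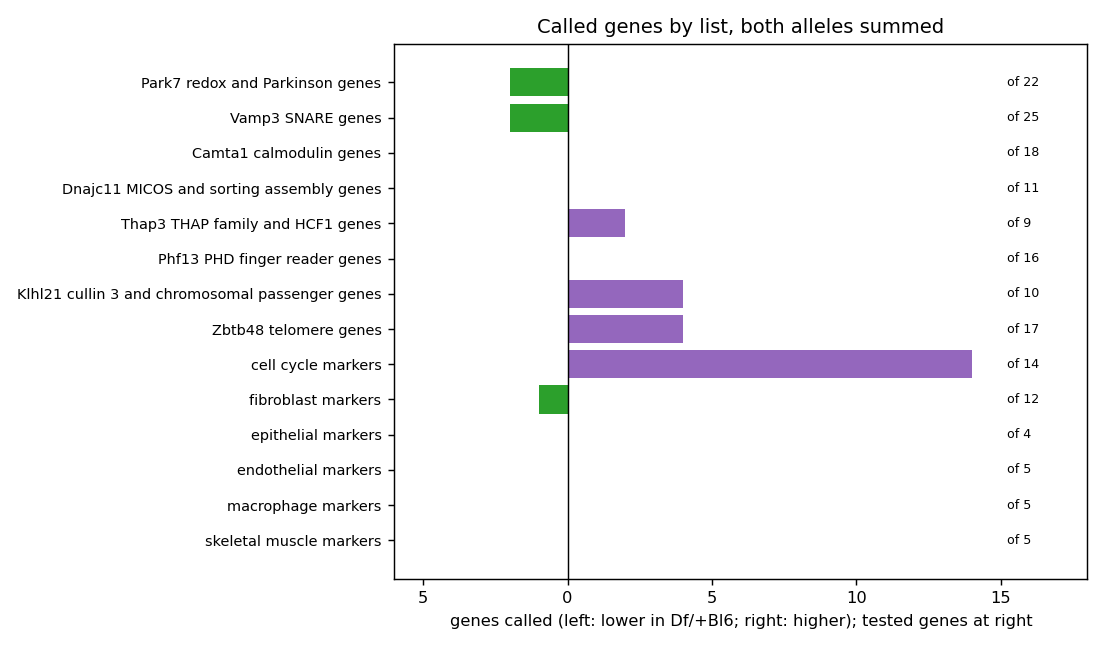
Number of genes called on summed counts in the lists around the 8 genes and in 6 marker lists, lower in Df/+Bl6 to the left and higher to the right, with the number tested at the right edge. The Schwann and neural crest markers, of which S100b, Sox10 and Erbb3 were called lower, are not drawn. The bar of the cell cycle markers reaches 14 of 14, and the lists around Klhl21 and Zbtb48 have 4 higher genes each.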

How the data were processed

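RNA-seq of 7 MEF lines was used. The authors used GSNAP, allowing no mismatch, to place stranded read pairs on transcriptomes of C57BL/6J (GRCm38/mm10) and 129S5. They counted pairs with both mates on the same gene, and left out genes under 10 reads per allele where this held across genotypes. The deposited signal values are mean normalized counts per genotype, which the authors made with DESeq size factors, in 3 tables of genes past an FDR of 0.05. These tables also hold the authors' fold changes and p-values across all genes, which were not used. The column with the first letter was taken as Df/+Bl6 because the pooled mean weights it by 4 lines, against 3 for the other (largest difference 3.3e-09).

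A further deposited file lists the tested genes and has 9 unnamed columns of values, more than the 7 lines, which match no label and were not used. So no value per line was used, no SD or test is given, and levels of Camta1, and of Zbtb48 on summed counts, are not given here. A gene in both allelic tables is missing from the tested genes and was left out of the percentages. A count and a sum over the Schwann and neural crest markers are not reported here.

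Log2 ratios are Df/+Bl6 over +/+ with no pseudocount. Symbols were matched for 14963 of the 15531 gene identifiers. GENCODE on NCBI37/mm9 gave gene order, strand, the interval and transcript lengths, and RefSeq on GRCm38.p6 gave positions and promoters. Named genes are the 8 genes, the tested genes next to them, the 3 nearest in allelic ratios in all and outside the interval, and up to 5 called genes per pathway list. Per3, Rnf207, nonagouti and the uncalled genes named were chosen after their values were seen. The members and lists were chosen with earlier results of these data known. Alternatives were pseudocounts, centring, a filter on means, the mean over members and coding length. Python 3.11.15, numpy 2.4.6 and matplotlib 3.10.9 were used, and the steps were tested on simulated data.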

Additional observations from a re-analysis of the deposited data

How the results depend on the processing

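With no value per line, a change was judged against 1 SD over the called members (0.22 for summed counts, 1.59 for 129S5 and 0.21 for C57BL/6J), which is not replicate error. No paired analysis was run, because the tables used hold genotype means. The 9 unnamed columns of values carry no line labels, and matching them to lines by their values was not tried. Leaving out each line was not run for the same reason.

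Centred on the called genes outside the interval (median log2 ratios 0.62, 0.73 and 0.71 in the 3 tables), the median of the members was -1.55 on summed counts and -1.52 for C57BL/6J, and -8.15 for 129S5. Those called genes are not all genes, so this shift is not that of the whole transcriptome. With 10 added to both means the 129S5 median was -4.91, because the Df/+Bl6 means are near 0. The centring shifts each ratio of a table alike. Single member ratios moved by more than that SD in 6 of 7 cases for 129S5 with 10 added and in 1 of 18 with 1 added, where Thap3 for 129S5 went from -9.34 to -7.28. The mean over members on summed counts was -0.95 in place of the median of -0.93. With genes of a mean of at least 1000 only, 5 members were called in place of 6. By coding length 4 of 6 members kept their place in the order of levels.

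An alternative chosen after seeing the data added 1 to the allelic means, and the 3 nearest genes stayed the same, in all and outside the interval. The filter at a mean of at least 1000 was also applied to the gene lists after seeing the data. With it, 14 pathway genes were called, as without it. S100b, Sox10 and Erbb3 have means under 1000 in both genotypes and fall under this filter.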
